A study of Mus musculus with 6 samples.

Results

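The enzymes that build, modify and trim sulfated glycosaminoglycans were examined in colonic stromal cells that did or did not express an *Il11* reporter. The group comprised 38 genes named for their function, from the xylosyltransferases that start the linker to the sulfotransferases and endosulfatases that set the sulfation pattern. Rows carrying these symbols were taken from the tag-count tables, which list 20327 symbols. Of the 38 genes, 37 were found, *Extl1* was not analysed here, and 30 of the 9334 genes tested were members.

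Cells came from C57BL/6 mice carrying *Il11-Egfp*, a bacterial artificial chromosome transgene in which *Egfp* is driven by the *Il11* promoter, from a single selected founder line. The animals, males aged 9 to 15 weeks, drank 1.5% dextran sulfate sodium (DSS), an agent that injures the colonic epithelium, for 5 days, then plain water, and their colons were taken on day 7. Cells lacking Ter119, CD45, CD31 and EpCAM (erythroid, leukocyte, endothelial and epithelial surface markers) were sorted by EGFP into negative cells, EGFP-, taken as IL-11-, and positive cells, EGFP+, taken as IL-11+, with 3 libraries per group. By the paper's account the sorted EGFP+ cells were mostly but not entirely pure. RNA was read by 5′Tag-seq, which counts sequence tags near the 5′ ends of polyadenylated transcripts. Both groups carried the transgene and received DSS, so the comparison asked how IL-11+ stromal cells differed from their IL-11- neighbours in the inflamed colon. EGFP marks cells in which the transgene is active and not the secreted cytokine, and EGFP- cells were every other cell left by the gate.

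Total tags were 1057170, 1078179 and 1169817 in the EGFP- libraries 1, 2 and 3 and 1046538, 1022851 and 1049048 in the EGFP+ libraries 1, 2 and 3. At these depths 3 tags, the upper limit allowed by a count of 0, stood at 2.56 to 2.93 tags per 1000000 tags (CPM), counting error only. Tags of *Il11* were 28, 51 and 89 in EGFP- and 1357, 732 and 2658 in EGFP+ libraries, a log2 fold change of 4.98 (SE 0.39; quasi-likelihood test of edgeR with Benjamini-Hochberg adjustment, adjusted p = 1.01e-07). All EGFP+ libraries were far above all EGFP- libraries, the order that the sort labels give.

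Markers of cell types were read beside the enzymes. All 8 fibroblast markers had tags in every library, and their summed level was 20920, 20750 and 23560 CPM in EGFP- and 41070, 32860 and 29550 CPM in EGFP+ libraries, with *Dcn* the most abundant. Of these 8, *Col3a1* and *Pdpn* rose (log2 fold changes 1.04 and 1.06; edgeR adjusted p = 0.00134 and 0.000256), *Thy1* and *Dcn* were higher by adjusted p alone (0.88 and 0.67; edgeR adjusted p = 0.00832 and 0.0462), and *Col1a2* was apart with an edgeR adjusted p of 0.14, or 0.0128 with the replicate numbers as a block (log2 fold changes 0.42 and 0.43). *Col3a1* was under the fold threshold without EGFP- library 1 (0.85), with library size only (0.96) or with a mean of 30 tags (0.998), and *Pdpn* without library 1 of either group (0.96 each) or with library size only (0.97). *Lum* was lower, with 1072, 1296 and 2153 tags against 681, 902 and 992 (log2 fold change −0.64; edgeR adjusted p = 0.0378, under the fold threshold), and *Col1a1* and *Pdgfra* overlapped between groups. With one library left out the edgeR adjusted p reached 0.227 for *Dcn*, 0.198 for *Lum* and 0.0638 for *Thy1*. In the other direction, *Thy1* passed both thresholds without EGFP- library 3 (1.21, edgeR adjusted p = 0.000543) or EGFP+ library 2 (1.003, edgeR adjusted p = 0.0113). All 8 smooth muscle and myofibroblast markers were lower, and their sum went from 2662, 3312 and 4163 CPM in EGFP- to 98.6, 156 and 344 CPM in EGFP+ libraries, with *Myh11* the most abundant. Of these, *Cnn1* (67, 95 and 130 tags against 0, 1 and 5) passed the filter through EGFP- libraries alone. Its call is therefore no test of a fall. The pericyte list summed to 2632, 2242 and 2031 CPM against 1068, 894 and 794 CPM, led by *Rgs5*. Within it *Rgs5* and *Cspg4* fell. *Notch3* had 69, 57 and 67 tags against 4, 0 and 7, and it too passed the filter through EGFP- libraries alone. By contrast, *Kcnj8* and *Abcc9* were higher by adjusted p alone (0.71 and 0.66, edgeR adjusted p = 0.0394 and 0.0167). With one library left out their edgeR adjusted p reached 0.192 and 0.0831. Of the glia markers, *Gfap* had 22, 23 and 26 tags in EGFP- and 1, 0 and 1 tags in EGFP+ libraries, and *Sox10* and *S100b* had 0 tags in every EGFP+ library. *Kit*, the mast cell marker found in the tables, had 63, 34 and 69 tags against 0, 0 and 7. *Gfap* and *Kit* also passed the filter through EGFP- libraries alone. Mast cells carry CD45, against which the cells were gated, *Kit* is also made by interstitial cells of Cajal, and the other 4 listed mast cell genes were not analysed here, so its source was not resolved. Endothelial, lymphatic, leukocyte, epithelial and mesothelial lists had no gene that passed the filter, and none of these sums exceeded 21.4 CPM in any library. Erythroid globin transcripts summed to 90.7, 0 and 305 CPM in EGFP- and 18.0, 2.03 and 19.1 CPM in EGFP+ libraries. The sum of fibroblast transcripts was thus higher, and the sums of muscle, mural and glial ones were lower, in EGFP+ libraries. These sums follow their most abundant genes and not every gene of a list. Mean *Rgs5* went from 1648 to 190 CPM, while *Abcc9* (263 to 417) and *Kcnj8* (110 to 180) went up. In the fibroblast sum *Dcn* (12090 to 19220) and *Col3a1* (4368 to 9008) weighed most, while *Lum* went down. The part of these transcripts in the results on the enzymes was not tested.

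Glycosaminoglycans are long sugar chains attached to core proteins, and the resulting proteoglycans fill the extracellular matrix and coat the cell surface. A shared linker is extended either into heparan sulfate or into chondroitin sulfate, part of which is converted to dermatan sulfate by epimerization. Sulfate groups added at defined positions in the Golgi, and in heparan sulfate removed again outside the cell by endosulfatases, determine which growth factors, cytokines and matrix proteins the chains bind, and stromal cells are a main source of these chains in the gut.

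Of the 30 tested members, 5 rose and 1 fell (fold change above 2 with an adjusted p below 0.05), where 3.44% of all tested genes rose (321 of 9334) and 6.37% fell (595 of 9334). The genes that rose were *Chst11*, *Hs3st1*, *Csgalnact1*, *Chst15* and *Ndst2*, and the gene that fell was *Ndst3*, which passed the filter through EGFP- libraries alone. At an adjusted p under 0.05 without the fold threshold, 9 members were higher (6.84% of all tested genes) and 2 were lower (8.7%). In 11 members every EGFP+ library was above every EGFP- library (14.5% of all tested genes), and in 3 members every EGFP+ library was below (16.7%). The tested members had a median log2 fold change of 0.29, ranging from −3.91 to 1.78, beside a median of −0.01 over all tested genes. The members' median was 0.52 without EGFP- library 2, and the SD of the median log2 ratio over replicate numbers was 0.24. Fitted fold changes were positive for 21 and negative for 9 of the 30 tested members, where 48.8% of all tested genes had positive ones (4553 of 9334). Over the other scalings, filters and left-out libraries, 17 of these 21 and 7 of these 9 kept one sign. Counts of this size rest on few genes. Without EGFP- library 1, or without EGFP- library 3, only 3 members rose, and without EGFP+ library 2 there were 2 that fell.

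**Figure D1:**
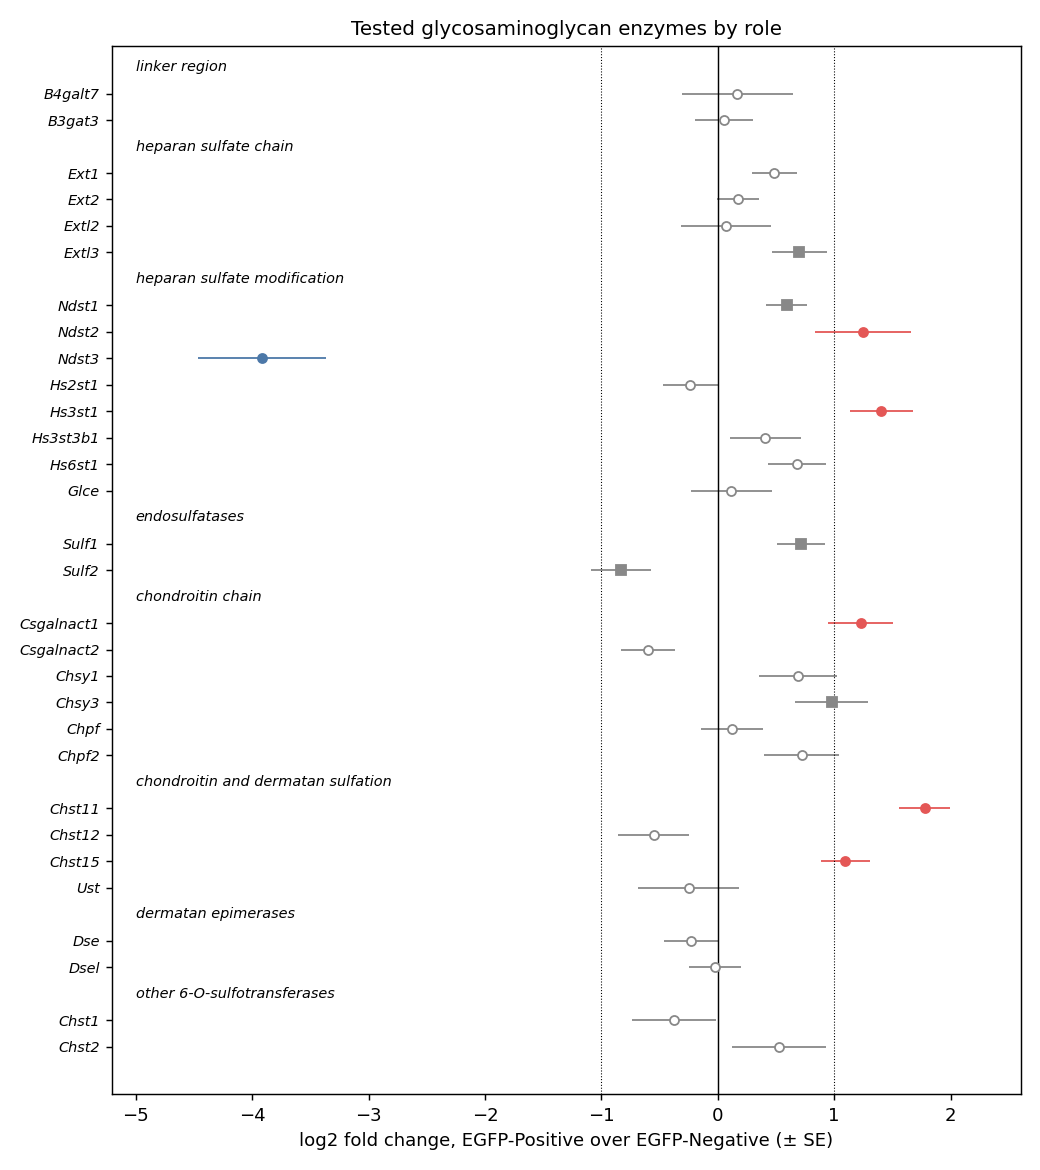
Log2 fold change (EGFP+ over EGFP-, with SE) of the 30 tested members by role. Red and blue filled circles are members called higher and lower, grey squares have an adjusted p under 0.05 at a fold change under 2, open circles passed neither rule, and dotted lines mark a fold change of 2. *Chst11* stands highest at 1.78 and *Ndst3* lowest at −3.91.

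The enzymes that sulfate chondroitin and dermatan chains held the largest positive change among the members. *Chst11* encodes a sulfotransferase that adds sulfate to the 4-O position of N-acetylgalactosamine in chondroitin. Its tags were 96, 99 and 87 in EGFP- libraries 1, 2 and 3 and 380, 250 and 233 in EGFP+ libraries 1, 2 and 3. The EGFP- libraries lay close together, EGFP+ library 1 was the highest, and the groups did not overlap. Its level rose from 85.5 ± 12.2 to 293 ± 96.4 normalized CPM (mean ± SD, n = 3; CPM after TMM scaling of the libraries), which is 1.78 on the log2 scale (SE 0.22; edgeR adjusted p = 1.14e-05). Between libraries of the same replicate number the increase was 4.39-fold, 2.72-fold and 3.11-fold. In sorted pools of cells, a higher share of cells with the transcript and more transcript per cell cannot be told apart, and the same holds for a decrease.

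*Chst15* encodes the enzyme that adds a further sulfate to 4-O-sulfated units, giving the disulfated E-type of chondroitin sulfate. Tags of *Chst15* were 81, 69 and 57 in EGFP- and 138, 151 and 109 in EGFP+ libraries. The lowest EGFP+ library, number 3, was above the highest EGFP- library, number 1. *Chst15* rose from 63.0 ± 15.4 to 134 ± 26.7 normalized CPM (log2 fold change 1.10, SE 0.21; edgeR adjusted p = 0.00111). The change sat near the fold threshold: without EGFP- library 3 it was 0.92 and without EGFP+ library 2 it was 0.996 on the log2 scale, with edgeR adjusted p of 0.00686 and 0.0108. *Chst12*, a second chondroitin 4-O-sulfotransferase, gave 33, 35 and 25 tags against 20, 22 and 15. All EGFP+ tag counts of *Chst12* were under those of EGFP- libraries, but after scaling the groups overlapped, and the log2 fold change of −0.55 did not pass the test (edgeR adjusted p = 0.268, or 0.204 with the replicate block), although EGFP+ was lower within each replicate number (0.673-fold, 0.677-fold and 0.697-fold). *Ust*, the uronyl 2-O-sulfotransferase, had 12, 14 and 14 tags against 7, 17 and 6, so EGFP+ libraries lay on both sides of the EGFP- ones. The chondroitin 6-O-sulfotransferases *Chst3* and *Chst7* and the dermatan 4-O-sulfotransferase *Chst14* were not tested. *Chst3* reached at most 6 tags, *Chst7* at most 4, and *Chst14* 12 tags in any library. Over the 7 enzymes of this role the summed level was 227, 221 and 168 CPM in EGFP- and 585, 461 and 354 CPM in EGFP+ libraries (205 ± 32.7 against 467 ± 116, n = 3). *Chst11* contributed the most tags to this sum.

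Chondroitin chains are begun by *Csgalnact1* or *Csgalnact2*, which place the first N-acetylgalactosamine on the linker, and are elongated by *Chsy1*, *Chsy3*, *Chpf* and *Chpf2*. For *Csgalnact1* the counts were 16, 39 and 40 tags in EGFP- and 81, 58 and 59 tags in EGFP+ libraries. EGFP- library 1 was the lowest and EGFP+ library 1 the highest, and no EGFP+ library reached down to the EGFP- range. *Csgalnact1* rose from 28.3 ± 11.4 to 67.0 ± 16.4 normalized CPM (log2 fold change 1.23, SE 0.28; edgeR adjusted p = 0.00452). Same-numbered libraries differed 5.62-fold, 1.6-fold and 1.71-fold, and without EGFP- library 1 the log2 fold change was 0.94 (edgeR adjusted p = 0.0243), under the fold threshold. The partner *Csgalnact2* had 58, 45 and 65 tags against 36, 27 and 36. All EGFP+ libraries were below all EGFP- libraries for *Csgalnact2*, yet the log2 fold change of −0.60 (SE 0.23) did not pass (edgeR adjusted p = 0.0963).

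*Chsy3*, a chondroitin synthase, had 11, 20 and 14 tags in EGFP- and 24, 28 and 28 tags in EGFP+ libraries. The EGFP+ counts were nearly equal and lay above all EGFP- counts. Its level was 13.6 ± 4.56 against 26.9 ± 1.50 normalized CPM, with a log2 fold change of 0.98 (SE 0.31; edgeR adjusted p = 0.0406), just short of the fold threshold. It passed both thresholds without EGFP- library 2 (1.28; edgeR adjusted p = 0.0263), and its edgeR adjusted p was 0.0705 to 0.146 without any 1 of the other 5 libraries, 0.0654 with library size only, and 0.114 in DESeq2. *Chsy1* had 10, 25 and 18 tags against 23, 21 and 33, which overlapped. *Chpf2*, a co-polymerase, had 15, 21 and 16 tags against 22, 34 and 21, apart in normalized CPM but not past the test (log2 fold change 0.72; edgeR adjusted p = 0.152). *Chpf* had 26, 31 and 31 tags against 21, 32 and 33 (26.5 ± 2.37 and 28.7 ± 5.64 normalized CPM), a difference within the spread between libraries. The 6 genes of this role summed to 130, 170 and 151 CPM in EGFP- and 219, 203 and 200 CPM in EGFP+ libraries.

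**Figure D2:**
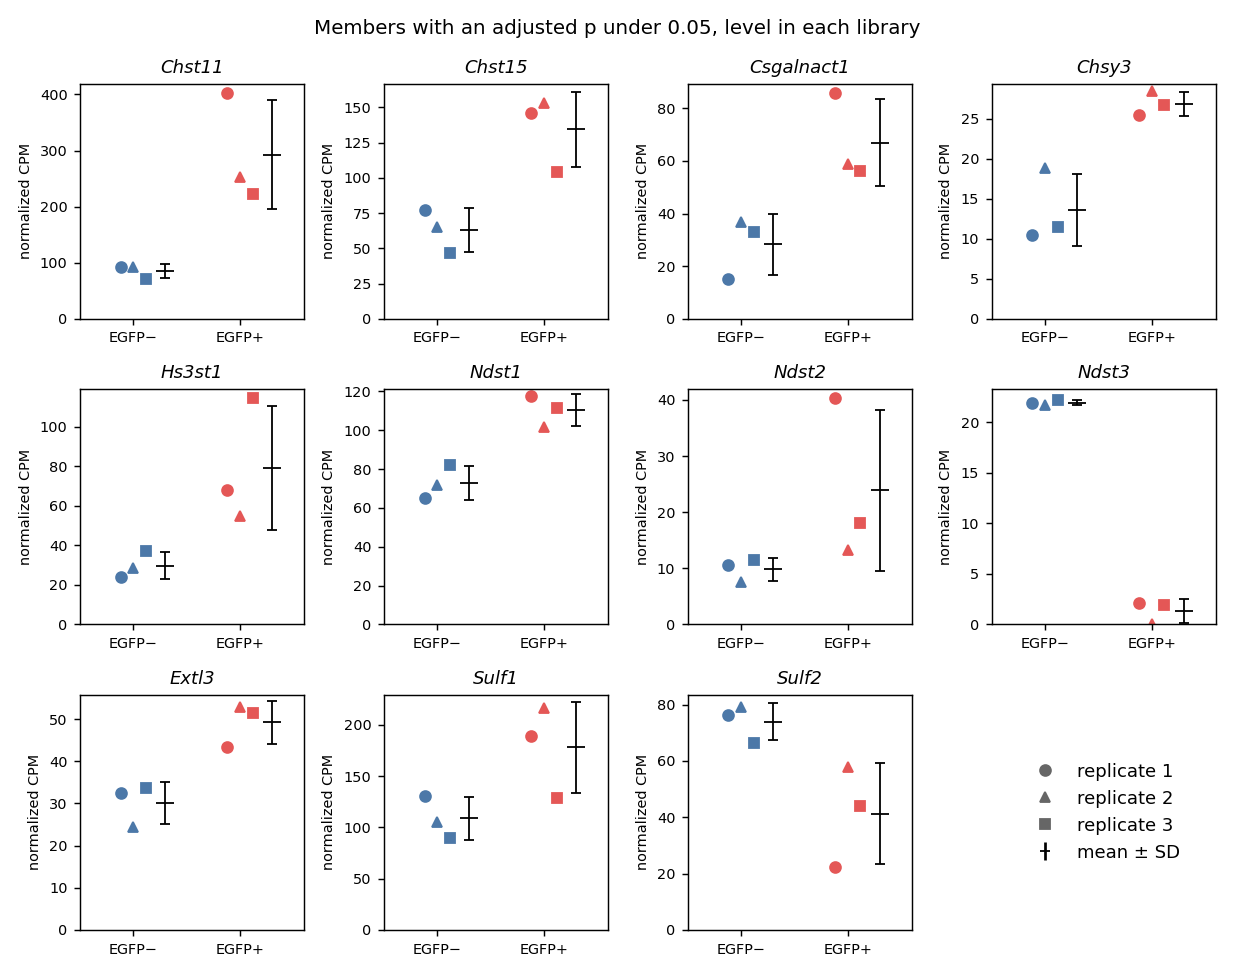
Normalized CPM in each library (vertical axis, from 0) of the 11 members with an adjusted p under 0.05, with EGFP- libraries in blue, EGFP+ libraries in red, one symbol per replicate number, and mean ± SD in black. In *Sulf1* the lowest EGFP+ library (129) lies under the highest EGFP- library (131), and in the other 10 panels the groups do not overlap.

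The epimerases *Dse* and *Dsel*, which convert glucuronic to iduronic acid and so turn chondroitin into dermatan sulfate, did not pass the test. *Dse* had 67, 48 and 84 tags against 62, 39 and 50, and *Dsel* had 48, 54 and 64 tags against 48, 36 and 62. Both overlapped between groups, and their log2 fold changes were −0.23 (SE 0.23) and −0.03 (SE 0.22). Of these 2 genes 0 had an unadjusted p under 0.05 in edgeR and 0 were called by DESeq2.

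In heparan sulfate the chain is modified stepwise, first by N-deacetylase/N-sulfotransferases of the Ndst family, on whose products the other sulfotransferases act. *Ndst3* was the member that fell. It had 23, 23 and 27 tags in EGFP- libraries and 2, 0 and 2 tags in EGFP+ libraries. The EGFP- values were almost identical, and each EGFP+ value was under the floor of 3 tags. Pooled over libraries, 73 against 4 tags gave a level 16.3-fold higher in EGFP- cells, with a 95% counting interval (exact, Clopper-Pearson) of 6.11 to 61.5. The fitted log2 fold change of −3.91 (SE 0.55; edgeR adjusted p = 4.96e-05) depends on the prior count added to such low values. *Ndst3* was also the only tested member that passed the filter through a single group, so a difference was built into its entry. Its p-value, pooled ratio and place among the called members therefore describe its tags and are no test of a fall. The glia marker *Gfap* and the smooth muscle sum given above were lower in the same libraries. Their part in the *Ndst3* result was not tested.

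*Ndst1* and *Ndst2* pointed the other way from *Ndst3*. *Ndst2* had 11, 8 and 14 tags in EGFP- and 38, 13 and 19 tags in EGFP+ libraries. EGFP+ library 1 stood well above the rest, and EGFP+ library 2 was only just above the EGFP- range in normalized CPM (13.2 against 11.5). The level rose from 9.85 ± 2.06 to 23.9 ± 14.4 normalized CPM, which is 1.25 on the log2 scale (SE 0.41; edgeR adjusted p = 0.0484). Without EGFP+ library 1 the log2 fold change of *Ndst2* was 0.67 with an edgeR adjusted p of 0.363. Leaving out EGFP- library 1, 2 or 3 kept the fold near its size (1.29, 1.10 and 1.38) with edgeR adjusted p of 0.103, 0.166 and 0.0696, as did DESeq2 (1.28, adjusted p = 0.0806), and over all alternatives the adjusted p ranged from 0.00828 to 0.363. *Ndst1* had 68, 76 and 100 tags against 111, 100 and 117. In normalized CPM its groups were apart, at 72.9 ± 8.66 and 110 ± 8.14, with a log2 fold change of 0.59 (SE 0.18; edgeR adjusted p = 0.0268), under the fold threshold. Its edgeR adjusted p was 0.0594 to 0.105 without any 1 of 4 libraries (EGFP- 1 or 2, EGFP+ 1 or 3) and 0.0728 with library size only, and DESeq2 gave 0.0776.

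*Hs3st1* encodes a 3-O-sulfotransferase that completes rare sulfation motifs of heparan sulfate, among them the antithrombin-binding site. Tags of *Hs3st1* were 25, 30 and 45 in EGFP- and 64, 54 and 120 in EGFP+ libraries. Library 3 was the highest of its group on both sides, and the groups did not overlap. The level rose from 29.7 ± 6.66 to 79.0 ± 31.3 normalized CPM (log2 fold change 1.40, SE 0.27; edgeR adjusted p = 0.00123), with increases of 2.84-fold, 1.94-fold and 3.10-fold between same-numbered libraries. *Hs3st1* shares 2.75% of the 50-base windows of its 5′ regions with the predicted gene *Gm11033*, while no window of the other 5 called members was shared with another gene. *Chst1* and *Glce* shared 3.28% and 3.2% of theirs, and the other tested members none. The related *Hs3st3b1* had 21, 32 and 19 tags against 33, 22 and 31, which overlapped. The 6-O-sulfotransferase *Hs6st1* had 24, 29 and 36 tags against 47, 45 and 35, apart in normalized CPM but not past the test (log2 fold change 0.68; edgeR adjusted p = 0.0788). The 2-O-sulfotransferase *Hs2st1* had 45, 36 and 45 tags against 29, 29 and 38 (37.9 ± 4.61 against 32.1 ± 3.61 normalized CPM), and the epimerase *Glce* had 19, 17 and 21 against 27, 12 and 16 (17.1 ± 1.07 against 18.7 ± 8.74). Neither difference exceeded the spread between libraries by the test. *Hs6st2* had at most 1 tag per library and was not detectable at this depth. Summed over the 9 genes of this role, levels were 225, 236 and 253 CPM in EGFP- and 372, 279 and 361 CPM in EGFP+ libraries.

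Heparan sulfate chains are polymerized by *Ext1* and *Ext2*, and *Extl3* adds the first N-acetylglucosamine. *Extl3* had 34, 26 and 41 tags in EGFP- and 41, 52 and 54 tags in EGFP+ libraries. The lowest EGFP+ count equalled the highest EGFP- count, but after scaling the groups were apart. The level was 30.2 ± 4.98 against 49.2 ± 5.06 normalized CPM, with a log2 fold change of 0.70 (SE 0.23; edgeR adjusted p = 0.049). This adjusted p rose above 0.05 whichever library was left out, reaching 0.183 in edgeR without EGFP- library 2, and was 0.104 with library size only and 0.137 in DESeq2. *Ext1* had 53, 62 and 85 tags against 89, 77 and 83, apart in normalized CPM at 59.6 ± 9.65 and 83.9 ± 9.06 but not past the test (log2 fold change 0.49; edgeR adjusted p = 0.103). *Ext2*, its partner in the polymerase, had 72, 69 and 85 tags against 80, 74 and 73. *Extl2* ranged from 11 to 39 tags in EGFP- and from 17 to 35 tags in EGFP+ libraries. Both *Ext2* and *Extl2* overlapped between groups.

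Enzymes of the linker did not pass the test. *B3gat3*, which adds the glucuronic acid that completes the linker, had 35, 26 and 37 tags against 29, 30 and 32, and *B4galt7* had 7, 11 and 12 tags against 17, 5 and 8. These overlapped, with log2 fold changes of 0.05 and 0.17, the latter −0.48 without EGFP+ library 1. Of these 2 tested genes 0 had an unadjusted p under 0.05 in edgeR and 0 were called by DESeq2. The xylosyltransferases *Xylt1* and *Xylt2* and the galactosyltransferase *B3galt6* were under the filter, with at most 3, 13 and 8 tags in any library. The remaining sulfotransferases *Chst1* and *Chst2*, which act on keratan sulfate and related chains, had 21, 26 and 19 tags against 10, 11 and 25, and 7, 14 and 9 tags against 10, 15 and 14. EGFP+ library 3 set the overlap of *Chst1*.

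*Sulf1* and *Sulf2* encode secreted endosulfatases that remove 6-O-sulfate from finished heparan sulfate chains, and their fold changes had opposite signs. *Sulf1* had 137, 112 and 109 tags in EGFP- and 178, 213 and 135 tags in EGFP+ libraries. EGFP+ library 3 lay within the EGFP- range, so the groups overlapped. The level of *Sulf1* was 109 ± 20.8 against 178 ± 44.7 normalized CPM (log2 fold change 0.71, SE 0.20; edgeR adjusted p = 0.0218). *Sulf2* had 80, 84 and 81 tags against 21, 57 and 46. All EGFP+ libraries were lower, with library 1 the lowest. The level was 74.0 ± 6.64 against 41.3 ± 17.9 normalized CPM (log2 fold change −0.83, SE 0.26; edgeR adjusted p = 0.0335), short of the fold threshold, which it passed without EGFP+ library 2 (−1.14; edgeR adjusted p = 0.0128). With single libraries left out the edgeR adjusted p was above 0.05 in 4 of 6 fits for each gene, up to 0.139 for *Sulf1*, without EGFP+ library 2, and 0.15 for *Sulf2*, without EGFP+ library 1, and DESeq2 gave 0.0683 for *Sulf2*. The smooth muscle sum and *Gfap* were lower in the same libraries as *Sulf2*, and their part was not tested.

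Because related enzymes often share a step, the log2 ratio of tags between partners in the same library was compared, a measure that scaling between libraries cannot change. Of 14 listed pairs, 10 had both genes past the filter, and in 5 of these the groups did not overlap, beside 33.1% of all 43557111 pairs of tested genes. The ratios reuse the tags given above, so they are no further evidence on the single genes. The *Chst11*/*Chst12* ratio was 1.53, 1.49 and 1.78 in EGFP- and 4.21, 3.48 and 3.91 in EGFP+ libraries, a difference of 2.27. For *Csgalnact1*/*Csgalnact2* it was −1.83, −0.20 and −0.69 against 1.16, 1.09 and 0.70, so the sign of the ratio changed between groups, with a difference of 1.89. Since *Csgalnact1* was apart upward and *Csgalnact2* apart downward, this ratio had to be apart. The *Sulf1*/*Sulf2* ratio was 0.77, 0.41 and 0.43 against 3.05, 1.89 and 1.54, a difference of 1.63 in which EGFP+ library 1 stood apart. Smaller differences separated *Ext1*/*Ext2* (0.33) and *Chst1*/*Chst2* (−1.01). With one library left out these ran from 0.208 to 0.427 and from −1.358 to −0.735. In these 5 pairs the exact permutation test (two-sided, 20 assignments, n = 3 per group) gave p = 0.1, the smallest it can give, and 0.2 after adjustment over the 10 pairs. With 3 against 3 libraries this exact test cannot go lower. It did not use the pairing by replicate number, within which the smallest exact p is 0.25. The groups overlapped for *Dse*/*Dsel*, *Chsy1*/*Chsy3*, *Ndst1*/*Ndst2*, *Extl2*/*Extl3* and *Chpf*/*Chpf2*. Compared within same-numbered libraries, a step chosen after seeing the data, the ratio was lower in EGFP+ in all 3 pairs of libraries for *Chpf*/*Chpf2* (differences −0.84, −0.64 and −0.29) and *Ndst1*/*Ndst2* (−1.04, −0.27 and −0.20), and of mixed sign for the other 3. These differences were not tested.

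**Figure D3:**
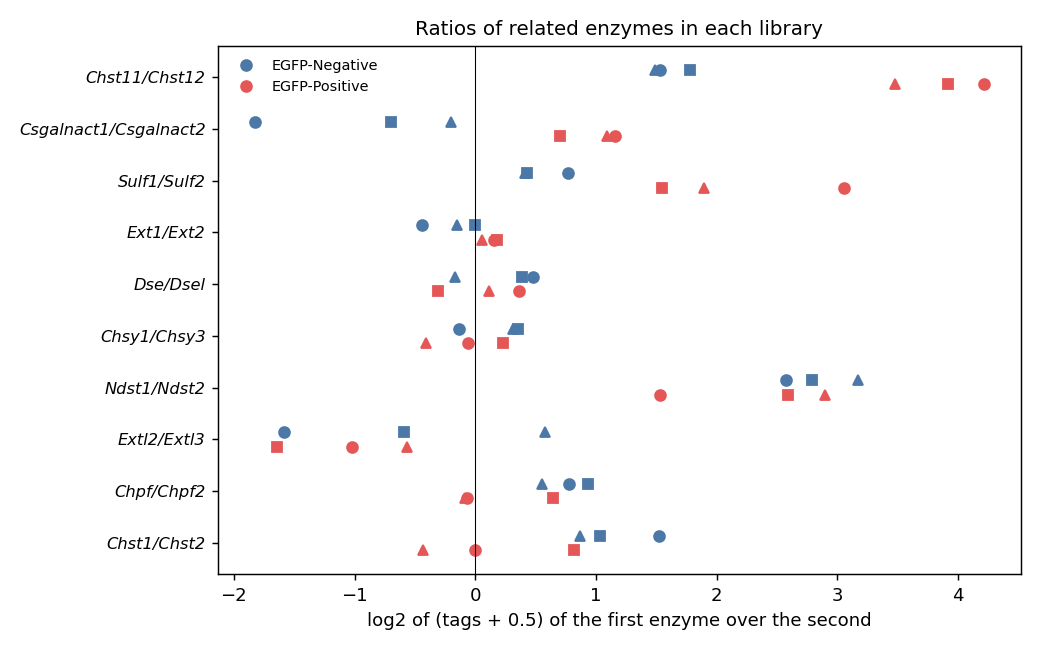
Log2 ratio of tags (with 0.5 tags added to each) of paired enzymes in each library, EGFP- in blue and EGFP+ in red, one symbol per replicate number, ordered by the difference between groups. *Chst11*/*Chst12* differed most (2.27), and the 3 libraries of each group are separate in 5 of the 10 pairs.

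The other steps of the pathway were read from 79 further genes, of which 54 were tested, 4 rose and 7 fell (3.44% and 6.37% of all tested genes), with a median log2 fold change of 0.04 beside −0.01 over all tested genes. Among sugar nucleotide supply genes, *Gfpt1* and *Gfpt2*, which catalyse the first step toward N-acetylhexosamines, went in opposite directions. *Gfpt1* rose, with 40, 55 and 66 tags against 93, 94 and 122 (log2 fold change 1.10, SE 0.20; edgeR adjusted p = 0.000545). Its log2 fold change was 0.96 without EGFP- library 1. *Gfpt2* fell, with 1033, 1009 and 1238 tags against 267, 357 and 473 (log2 fold change −1.43, SE 0.18; edgeR adjusted p = 1.89e-05). *Papss2*, a synthase of the sulfate donor used by all of the sulfotransferases above, fell from 69, 41 and 34 tags to 21, 21 and 12 (log2 fold change −1.26, SE 0.34; edgeR adjusted p = 0.015). Without EGFP- library 1 its log2 fold change was −0.86 (edgeR adjusted p = 0.126). Without EGFP+ library 3 it was −1.003, still past the fold threshold (edgeR adjusted p = 0.0672). The other synthase, *Papss1*, had 33, 23 and 38 tags against 22, 41 and 27, and the remaining 7 tested genes of sulfate supply and Golgi transport were not called.

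Core proteins carry the chains, and 3 of 17 tested rose while 4 fell, with a median log2 fold change of −0.06. By adjusted p alone 6 were higher and 4 lower (6.84% and 8.7% of all tested genes). Cell-surface *Sdc1* (216, 217 and 82 tags against 1008, 971 and 583), basement membrane *Col18a1* (395, 341 and 254 against 1366, 1346 and 784) and matrix *Vcan* (366, 474 and 486 against 911, 1150 and 910) rose, with log2 fold changes of 2.45, 1.97 and 1.33 (SE 0.32, 0.25 and 0.18). *Vcan* and *Col18a1* encode carriers of chondroitin sulfate and of heparan sulfate, respectively. The glypicans *Gpc3* (126, 108 and 182 tags against 8, 16 and 40) and *Gpc6* (121, 127 and 149 against 49, 73 and 51) fell, as did the pericyte proteoglycan *Cspg4* (71, 67 and 70 against 11, 15 and 11) and the secretory granule proteoglycan *Srgn* (21, 21 and 27 against 5, 12 and 3). Their log2 fold changes were −2.53, −1.03, −2.32 and −1.60. That of *Gpc3* was −3.31 without EGFP+ library 3, and that of *Srgn* was −2.32 without EGFP+ library 2. *Gpc6* dropped under the fold threshold without a filter on low counts (−0.992) and without EGFP+ library 1 or 3 (−0.95 and −0.92). Without EGFP+ library 1 or 3 *Srgn* had log2 fold changes of −1.46 and −1.22, with edgeR adjusted p of 0.0559 and 0.0639. Of the other glypicans tested, *Gpc1* was higher, with 51, 66 and 46 tags against 69, 92 and 111 (log2 fold change 0.88, SE 0.22; edgeR adjusted p = 0.00808), under the fold threshold except without EGFP- library 2 (1.085) or EGFP+ library 1 (1.02), and *Gpc4* overlapped between groups (16, 6 and 13 tags against 7, 15 and 8). *Cspg4* is itself 1 of the 7 pericyte markers, whose sum was lower in every EGFP+ library.

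*Has1*, a synthase of hyaluronan, the unsulfated glycosaminoglycan made without a core protein, fell from 501, 764 and 1319 tags to 102, 181 and 374 (log2 fold change −1.81, SE 0.33; edgeR adjusted p = 0.000626). *Has2* gave 36, 41 and 29 tags against 46, 50 and 56 (log2 fold change 0.67; edgeR adjusted p = 0.0666, or 0.0323 with the replicate block). Of 16 tested genes of glycosaminoglycan breakdown, edgeR called 0 and DESeq2 called 0, while at an unadjusted p under 0.05 there were 1 higher and 2 lower in edgeR. *Hpse*, the heparanase that cuts heparan sulfate chains, had 100, 112 and 130 tags against 139, 171 and 164 (log2 fold change 0.63; edgeR adjusted p = 0.0122, or 0.0647 without EGFP+ library 2 and 0.0517 without EGFP- library 1). Of the remaining synthesis and sulfation enzymes, 2 of 16 were tested, *Fam20b* and *Pxylp1*, the kinase and phosphatase of the linker xylose, and 0 had an unadjusted p under 0.05 in edgeR or a call in DESeq2.

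The 6 called members lie on separate chromosomes of GRCm38: *Ndst3* on chr3:123526166-123690853 (− strand), *Hs3st1* on chr5:39613935-39755475 (−), *Chst15* on chr7:132235780-132317228 (−), *Csgalnact1* on chr8:68356781-68735146 (−), *Chst11* on chr10:82985498-83195900 (+) and *Ndst2* on chr14:20723730-20734562 (−). RefSeq promoter windows (GRCm38.p6) were found for 31 of the 38 members and 5 of the 6 called ones. The 250 bases before the start are printed for 4 members that rose, since these genes were called in the same direction. Windows lie at chr10:82985247-82985496 (+) for *Chst11*, chr7:132317229-132317478 (−) for *Chst15*, chr14:20734563-20734812 (−) for *Ndst2* and chr5:39644632-39644881 (−) for *Hs3st1*. The first 3 are directly upstream of the annotated gene, and the last lies inside the annotated span of *Hs3st1*, at an internal start. *Chst15* also had a second window, chr7:132317027-132317276 (−), which overlaps its first, has a GC content of 62.8%, holds GGGCGG and is not printed. Sequences read 5′ to 3′ on the gene's strand, and capitals mark the GC box GGGCGG or its reverse complement.
Chst11: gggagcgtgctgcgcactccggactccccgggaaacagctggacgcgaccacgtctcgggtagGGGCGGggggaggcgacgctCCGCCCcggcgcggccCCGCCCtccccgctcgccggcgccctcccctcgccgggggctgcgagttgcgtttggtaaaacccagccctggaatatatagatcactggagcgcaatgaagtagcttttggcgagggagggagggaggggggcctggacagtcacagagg
Chst15: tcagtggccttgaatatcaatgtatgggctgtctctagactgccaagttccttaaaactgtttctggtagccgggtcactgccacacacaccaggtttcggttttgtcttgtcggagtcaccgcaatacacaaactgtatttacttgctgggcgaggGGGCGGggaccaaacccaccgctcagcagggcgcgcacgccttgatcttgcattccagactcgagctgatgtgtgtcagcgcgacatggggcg
Ndst2: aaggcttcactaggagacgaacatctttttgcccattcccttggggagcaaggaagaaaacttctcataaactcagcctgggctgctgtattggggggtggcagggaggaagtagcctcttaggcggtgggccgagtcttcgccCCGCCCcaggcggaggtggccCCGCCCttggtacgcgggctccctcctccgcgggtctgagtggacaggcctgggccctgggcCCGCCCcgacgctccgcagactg
Hs3st1: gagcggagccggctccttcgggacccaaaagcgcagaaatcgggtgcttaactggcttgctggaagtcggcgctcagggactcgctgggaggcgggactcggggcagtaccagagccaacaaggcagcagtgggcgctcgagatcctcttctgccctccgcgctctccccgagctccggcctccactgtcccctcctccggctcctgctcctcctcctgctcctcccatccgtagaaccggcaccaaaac

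The windows of *Chst11* and *Ndst2* held 3 GC boxes each, that of *Chst15* held 1 and that of *Hs3st1* none, with GC contents of 70%, 64.8%, 54.8% and 66%. Searched on both strands, GGGCGG was found in 32.7% of all 32851 promoter windows of this length and in 18 of 30 windows of the tested members. These are not 1 window per tested member, as *Csgalnact1* had none while *Chst15* and *Ndst3* had more than 1. The share over all windows was not limited to tested genes, so the 2 shares are not alike. None of the 4 windows held the AP-1 letters TGANTCA (6.75% of all windows), the STAT letters TTCNNNGAA (7.02%), the TATA box TATAAA (12.4%), the E-box CACGTG (6.02%) or the RBPJ letters TGGGAA (21.6%), so no matches of different motifs overlapped. In the 30 member windows these 5 motifs were found in 1, 1, 1, 3 and 2. A match describes letters in a window only, and its absence says only that those letters are not there.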

How the data were processed

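Tag counts of 6 libraries of sorted colonic cells were used. The authors trimmed reads with Cutadapt 1.18, mapped them with Bowtie2 2.2.5 in one orientation to RefSeq RNA of mm10, and deposited unnormalized tag counts per gene symbol. How tags matching several genes were treated is not given in the sources used here, nor are molecular identifiers. The study's methods, as printed, exclude genes with 10 tags or more, taken here to mean that these genes were kept.

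Genes reaching 10 tags in 3 or more libraries entered edgeR 4.0.16 (R 4.3.3; TMM scaling, glmQLFit and glmQLFTest), and p-values were adjusted by Benjamini-Hochberg over all 9334 tested genes. Members past an adjusted p of 0.05 are described with every library's tags, the others by tags or ranges, and in the other pathway lists the called genes are named, at most 6 per list by smallest p, with *Srgn* added as the called core protein left over. *Has2*, *Papss1*, *Hpse*, *Fam20b*, *Pxylp1*, *Gpc1*, *Gpc4* and the fibroblast markers were named after their values were seen. The members and the lists were chosen with earlier results of these data known. Lists are described by counts and medians, without a test of the list. Some genes of these lists are not reported here.

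Replicate numbers come from the sample titles, and the methods name 3 mice. Deviations from the group means correlated between same-numbered libraries (r = 0.232, 0.22 and 0.27 over 5064 genes averaging 30 tags or more), so the numbers were taken to pair the libraries. Libraries of one group differed by more than sampling noise. Handling was varied by RLE size factors, library size only, iterative TMM, DESeq2 1.42.0, filters on low counts, a replicate block, left-out libraries and, for ratios, the pseudocount. The code was tested on simulated data. Positions are from the GENCODE annotation of GRCm38 and promoter windows from RefSeq GRCm38.p6. Shared 5′ sequence was sought in the first 300 bases of transcripts in windows of 50 bases.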

Additional observations from a re-analysis of the deposited data

How the results depend on the processing

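Across RLE size factors, library size only, iterative TMM, DESeq2, the 3 other filters on low counts and the replicate block, 4 to 6 members rose. *Chst11* and *Hs3st1* were called in all of these and with any library left out. *Ndst3* was also called wherever it was tested, but it passed the filter through EGFP- libraries alone, so these calls add no support. With the replicate block 5 members rose and 1 fell, the same 5 and 1 as without it, and over all genes 337 rose and 648 fell. The paired fit changed no call of a member. At adjusted p alone it left the 11 members as they were. It took the other pathway genes from 17 to 23 of 54 (6 gained, 0 lost). Without the block 6.84% of all tested genes were higher and 8.7% lower by this rule. Their share with the block is not given here, so this gain cannot be compared with that over all genes. The median log2 fold change of the tested members was 0.16 to 0.49 over these settings and 0.22 to 0.52 with one library left out. The first range mixes sets of genes: 0.16 was over 37 members without a filter and 0.49 over 16 with a mean of 30 tags. Where the same 30 members were tested as in the main fit, the other scalings, DESeq2 and the block gave 0.205 to 0.305. With a mean of at least 30 tags, 199 genes rose and 281 fell among 5064, and 0 members fell, since *Ndst3* was not tested there. By adjusted p alone 9 members were higher and 2 lower. Of all genes 638 were higher and 812 lower, and of the other pathway lists 9 were higher and 8 lower. Leaving out one library gave 3 to 5 members that rose, 1 to 2 that fell and, in the other pathway lists, 4 to 8 that fell (4 without EGFP+ library 3, against 7 with all). Those fits have fewer samples, and the cause was not tested. *Ndst2* lost its call with library size only (log2 fold change 1.15; edgeR adjusted p = 0.0675), with DESeq2 (1.28; adjusted p = 0.0806) and without any of 4 libraries (1.10 to 1.38 without an EGFP- library, 0.67 without EGFP+ library 1), with an adjusted p of 0.00828 to 0.363 over its alternatives, and *Chsy3* gained one without a filter (log2 fold change 1.02; edgeR adjusted p = 0.0316). A pseudocount of 1 kept 5 of 10 enzyme ratios apart. Within same-numbered libraries, an alternative chosen after seeing the data, 7 of 10 ratios differed with one sign, the 5 with groups apart among them, beside 50.8% of all pairs of tested genes. Low tag counts, as in *Ndst2*, *Chsy3*, *B4galt7* and *Ust*, limit what these depths resolve.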
